A study of Mus musculus with 9 samples.

Results

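The nuclear genes of respiratory complexes II to V were described in sorted mouse haematopoietic stem cells (HSCs). Members were picked by gene name: protein-coding rows of the gene table for the Sdh subunits and assembly factors, the Uqcr genes, the Cox4 to Cox8 genes and the Atp5 genes. The rule found 53 rows of 56748, with 8 in complex II, 8 in complex III, 19 in complex IV and 18 in complex V. Bulk RNA-seq covered 9 libraries, 3 from each of 3 groups of HSCs sorted from the bone marrow of C57BL/6 females, with no transgene or treatment given for any group. The young group (yHSCs) came from mice of 6 to 10 weeks. Both pre-aged groups (paHSCs) came from mice of 14 to 16 months and were sorted into Selp high and Selp low cells by surface P-selectin, an adhesion receptor of platelets and endothelium that Selp encodes. The study describes the 3 libraries of a group as biological replicates, and its RNA-seq methods do not say whether animals were pooled.

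The respiratory chain of the inner mitochondrial membrane passes electrons from fuels to oxygen and stores the energy as a proton gradient, which ATP synthase uses to make ATP. Complex II (succinate dehydrogenase) feeds in electrons from succinate and is a Krebs cycle enzyme, complex III hands electrons from coenzyme Q to cytochrome c, complex IV (cytochrome c oxidase) reduces oxygen and complex V is ATP synthase itself. Complex II is encoded by nuclear genes alone, whereas complexes III, IV and V also hold subunits from mitochondrial DNA. HSCs at rest are known for a low reliance on oxidative phosphorylation, which increases when they leave quiescence and differentiate.

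Promoters of 5 members are shown because these genes span the range of values described below: Uqcr11, Cox6a1 and Atp5e had among the largest differences between groups, and Sdha and Atp5b among the smallest. Each is the 250 bases before the RefSeq gene start, in build GRCm38.p6 and read 5′ to 3′ on the gene's strand. Capitals mark the 7-base ETS core CCGGAAG and the 8-base NRF1 core GCATGCGC, in either direction. ETS factors such as GABP, and NRF1, are known activators of nuclear respiratory genes.
Uqcr11, chr10:80406822-80407071, minus strand: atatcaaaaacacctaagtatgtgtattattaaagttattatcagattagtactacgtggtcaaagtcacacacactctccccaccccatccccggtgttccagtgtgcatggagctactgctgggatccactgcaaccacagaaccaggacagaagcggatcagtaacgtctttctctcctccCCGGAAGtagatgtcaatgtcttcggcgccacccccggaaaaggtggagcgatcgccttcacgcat
Cox6a1, chr5:115348959-115349208, minus strand: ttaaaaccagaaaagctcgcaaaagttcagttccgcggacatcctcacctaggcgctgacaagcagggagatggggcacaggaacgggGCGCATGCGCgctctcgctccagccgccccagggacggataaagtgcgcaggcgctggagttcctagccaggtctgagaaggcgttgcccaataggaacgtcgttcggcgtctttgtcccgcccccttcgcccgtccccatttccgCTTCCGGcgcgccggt
Atp5e, chr2:174464102-174464351, minus strand: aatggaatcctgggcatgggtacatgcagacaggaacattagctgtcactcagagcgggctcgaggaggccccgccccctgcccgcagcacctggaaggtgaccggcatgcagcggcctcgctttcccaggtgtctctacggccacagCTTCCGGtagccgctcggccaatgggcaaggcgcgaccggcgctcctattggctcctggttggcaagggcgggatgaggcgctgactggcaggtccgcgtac
Sdha, chr13:74350241-74350490, minus strand: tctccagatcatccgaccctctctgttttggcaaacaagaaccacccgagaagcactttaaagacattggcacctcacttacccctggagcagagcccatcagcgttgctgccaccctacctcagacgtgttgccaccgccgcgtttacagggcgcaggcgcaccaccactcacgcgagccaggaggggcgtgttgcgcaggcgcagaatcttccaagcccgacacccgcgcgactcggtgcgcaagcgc
Atp5b, chr10:128083057-128083306, plus strand: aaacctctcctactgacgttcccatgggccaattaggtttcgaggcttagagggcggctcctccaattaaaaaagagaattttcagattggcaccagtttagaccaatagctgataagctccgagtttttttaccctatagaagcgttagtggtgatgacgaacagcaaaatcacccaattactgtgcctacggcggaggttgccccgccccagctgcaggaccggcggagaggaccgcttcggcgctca

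The Uqcr11 promoter held 1 ETS core, at bases -66 to -60 from the gene start, and an NRF1 core at -4 to 4, which runs past the end of the bases printed. Cox6a1 also held both, an NRF1 core read on either strand within bases -162 to -153 and an ETS core at -16 to -10. Atp5e held 1 ETS core at -102 to -96, and no match to these letters lay in the 250 bases printed for Sdha and Atp5b. A RefSeq window of 300 bases, with 50 bases after the start added, matched 40 of the 53 members by symbol. The ETS core was found in 16 of these 40 windows (40.0%) and in 9.93% of the windows of 27025 genes. The NRF1 core was found in 7 of 40 (17.5%) against 3.05% of all genes, and overlapped its own reverse complement where 2 matches lay 2 bases apart. The YY1 core AAGATGGCG was found in 2 of 40 (5%) against 1.64% of all genes. By complex, the ETS core was in 5 of 7 windows of complex II, 2 of 5 of complex III, 3 of 13 of complex IV and 6 of 15 of complex V. A match to any of these cores lay in 19 of the 40 members, including ones with small differences between groups such as Uqcrc1 and Sdhaf2. Whether matches go with the size of a difference was not tested. A match to such short letters describes the sequence and shows no binding.

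Library sizes were 24866975 to 35375310 counts on genes, and 3 counts, the limit that a count of 0 allows, stood for 0.0695 to 0.198 CPM, the unit of scaled counts used for levels. All 10 HSC markers were detected in every library, with summed levels of 1035 to 2294 CPM in yHSCs, 819 to 1505 CPM in Selp low and 2174 to 3121 CPM in Selp high paHSCs. Markers of other blood cells were also present. The 10 neutrophil markers summed to 13210 to 64897 CPM in yHSCs, 547 to 213233 CPM in Selp low and 1678 to 42642 CPM in Selp high paHSCs. The 10 B and plasma cell markers summed to 909 to 1635 CPM in yHSCs, 1369 to 463345 CPM in Selp low and 3151 to 21268 CPM in Selp high paHSCs. These lists were detected in full in every library. Selp low library 2 held the highest B and plasma cell sum and library 3 the highest neutrophil sum. These 2 libraries also had the lowest scaling factors, 0.545 and 0.785 against 1.05 to 1.22 in the other 7, and their 10 most abundant genes took 44.8% and 20.9% of counts. Erythroid markers summed to 304 to 3282 CPM over all libraries, megakaryocyte markers to 116 to 5847 CPM, T and NK cell markers to 45.8 to 621 CPM, plasmacytoid dendritic cell markers to 93.2 to 717 CPM and muscle markers to 4.80 to 17.7 CPM. Of the megakaryocyte markers 5 of 6 were detected in the yHSCs, with Gp1bb at 0, and 6 of 6 elsewhere; of the T and NK cell markers 4 or 5 of 5 were detected, and of the muscle markers 1 to 5 of 5. The part of these cell types in the results was not tested. In bulk RNA, fewer cells of a type and less RNA per cell cannot be told apart.

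Levels of all 4 complexes were highest in Selp low paHSCs, with complexes III to V about 2 times their level in yHSCs. The geometric mean level of the 8 complex III genes was 104 ± 22.5 CPM in yHSCs (SD, n = 3), 217 ± 27.1 CPM in Selp low and 130 ± 13.2 CPM in Selp high paHSCs. For 14 complex IV genes the same means were 56.0 ± 6.42, 112 ± 23.3 and 74.2 ± 2.18 CPM. For 17 complex V genes they were 102 ± 15.0, 215 ± 39.2 and 144 ± 8.60 CPM. Every Selp low library lay above every library of the other groups for complexes III to V. Complex II differed less, at 60.9 ± 6.74 CPM in yHSCs, 91.8 ± 7.20 CPM in Selp low and 75.7 ± 17.1 CPM in Selp high paHSCs, and Selp high library 1 at 94.4 CPM lay within the Selp low range of 84.2 to 98.5 CPM. The lowest Selp low library was library 1, with 186 CPM for complex III, 85.5 CPM for complex IV and 170 CPM for complex V, each above the highest yHSC value of 130, 63.2 and 119 CPM. That library's neutrophil marker sum of 5084 CPM was below those of all yHSC libraries and its B and plasma cell sum of 22347 CPM above them. Members took 0.773 to 0.915% of counts in yHSCs, 0.661 to 1.10% in Selp low and 0.972 to 1.04% in Selp high paHSCs, so on raw shares Selp low library 2 was the lowest of all.

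**Figure D1:**
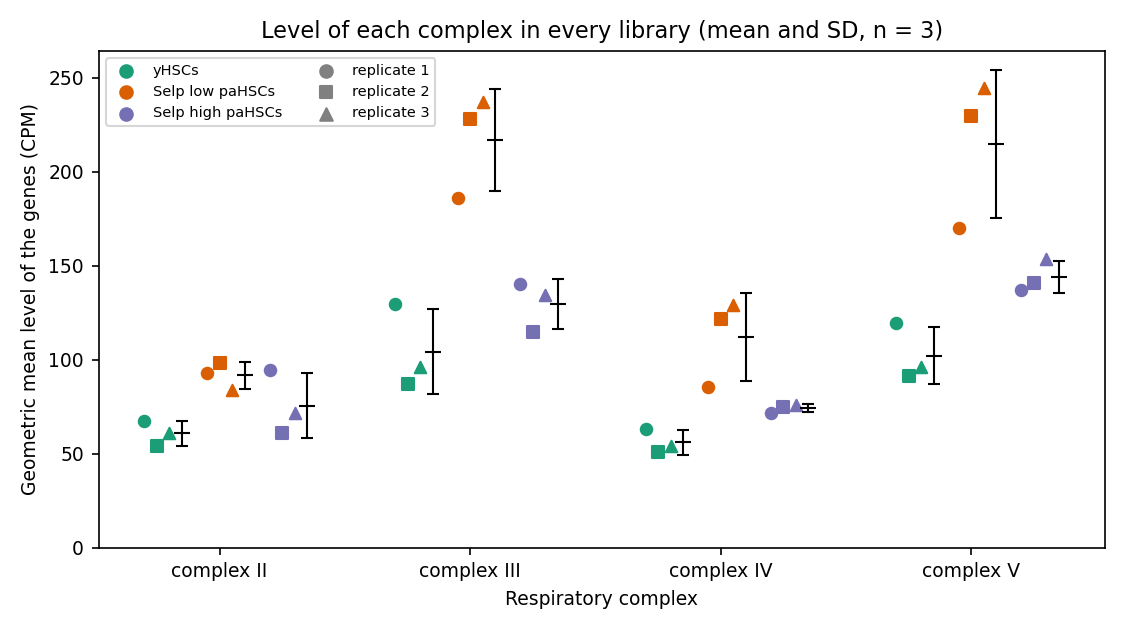
Geometric mean level (CPM, linear axis from 0) of the genes of each complex in every library; point shape gives the replicate, and black bars the group mean and SD (n = 3). All Selp low libraries lie above the other 6 for complexes III, IV and V, while for complex II Selp high library 1 (94.4 CPM) falls within the Selp low range.

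Ratios between complexes were also taken within each library. The ratio of complex III to complex II was 1.70 ± 0.19 in yHSCs (SD, n = 3), 2.38 ± 0.41 in Selp low and 1.75 ± 0.23 in Selp high paHSCs, and each Selp low library (2.01 to 2.82) was above every yHSC library (1.57 to 1.92). For the ratio of complex IV to complex II the groups overlapped, at 0.881 to 0.942 in yHSCs, 0.921 to 1.53 in Selp low and 0.760 to 1.23 in Selp high paHSCs. For complex V to complex II, Selp low paHSCs (1.84 to 2.90) lay above the yHSCs (1.57 to 1.77) and overlapped the Selp high paHSCs (1.45 to 2.31). The ratio of complex V to complex III was 0.990 ± 0.065 in yHSCs, 0.985 ± 0.062 in Selp low and 1.12 ± 0.13 in Selp high paHSCs, with ranges that overlapped. Such ratios do not use a library's scaling factor. No test was made of them.

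Selp low paHSCs were compared with yHSCs first, since this pair had the largest differences. Of the 47 members that passed the filter on low counts, none was a DEG, defined by an adjusted p of 0.05 or less and at least a 2-fold change, by edgeR's quasi-likelihood test (0% of 20437 genes higher and 0% lower). The lowest adjusted p of a member was 0.332. At an unadjusted p under 0.05, 33 members were higher and 0 lower, where 7.11% of all genes were higher and 4.17% lower. In 39 members every Selp low library was above every yHSC library and in 0 below, against 9.59% and 6.74% of all genes. The median log2 fold change was 1.21 over members and 0.08 over all genes, and 45 members were positive and 2 negative. DESeq2 called 3 members higher and 0 lower at an adjusted p of 0.05 or less (1.99% and 0.965% of all genes), and limma with quality weights called 26 higher and 0 lower (1.75% and 0.519%).

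By complex, an unadjusted p under 0.05 was reached by 2 of 8 genes of complex II, 6 of 8 of complex III, 11 of 14 of complex IV and 14 of 17 of complex V. The median log2 fold changes were 0.70, 1.26, 1.23 and 1.24. Within complex II, the 4 subunits had a median of 0.57 and the 4 assembly factors 0.74. When Selp low libraries 2 and 3 were both left out, the median over members was 0.71 against -0.11 over all genes. When library totals were used without scaling factors, the members' median was 0.59 and that of all genes -0.47. Of the 47 members, 4 then had an unadjusted p under 0.05, and the share of all genes under it was not taken. The members' median was above that of all genes by 1.13 in the fit as designed and by 1.07 without scaling factors. Scaling factors move all genes of a library together, so this gap hardly depends on them and cannot show which scaling is right.

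**Figure D2:**
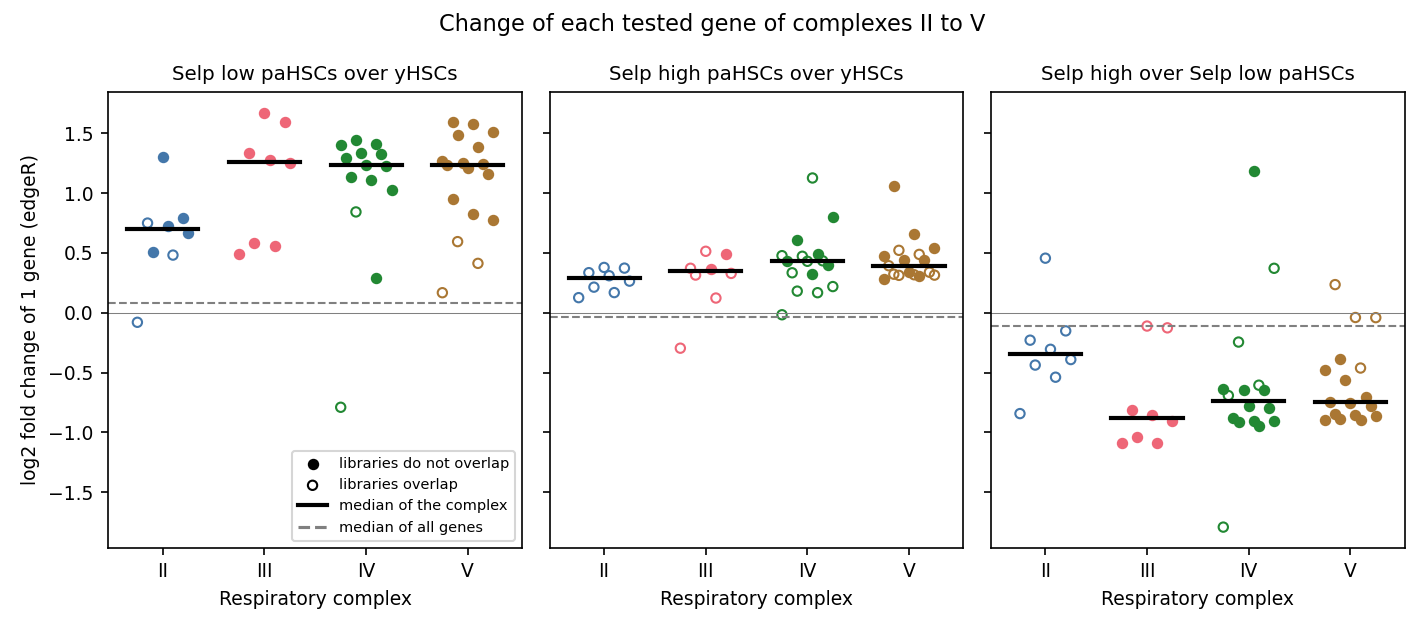
log2 fold change (edgeR) of each tested gene by complex, in the 3 comparisons; filled points are genes whose libraries do not overlap between the groups, black bars the median of a complex and the dashed line the median of all genes. Complexes III to V centre near 1.2 for Selp low over yHSCs and between -0.88 and -0.74 for Selp high over Selp low, with complex II nearer 0 in both.

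In complex II, the catalytic flavoprotein Sdha was the 1 gene with a negative log2 fold change for Selp low over yHSCs. Its levels were 467, 539 and 637 CPM in yHSCs, 477, 480 and 546 CPM in Selp low and 834, 488 and 752 CPM in Selp high paHSCs. The groups overlapped in every comparison, and the log2 fold change of Selp low over yHSCs was -0.08 ± 0.24 (SE; adjusted p = 0.985, edgeR), and 0.036 when yHSC library 3 was left out. Sdhb, the iron-sulfur subunit that passes electrons on from Sdha, had 224, 153 and 174 CPM in yHSCs, 280, 346 and 303 CPM in Selp low and 286, 180 and 247 CPM in Selp high paHSCs. All Selp low values lay above the yHSC values, with a log2 fold change of 0.79 ± 0.27 (adjusted p = 0.359, edgeR). Sdhaf1, an assembly factor for the iron-sulfur clusters of Sdhb, had the largest difference of the complex, at 1.30 ± 0.42 (adjusted p = 0.347, edgeR). Its levels were low, at 5.21, 5.89 and 5.22 CPM in yHSCs, 16, 15.6 and 6.97 CPM in Selp low and 9.77, 6.40 and 5.53 CPM in Selp high paHSCs. Selp low library 3 stood close to the yHSCs. The membrane anchor Sdhd was the highest gene of the complex per length, with a mean of 195 CPM per kilobase of gene length over the 9 libraries, and the assembly factor Sdhaf3 the lowest at 2.51.

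In complex III, Uqcr11 and Uqcr10 differed most. Uqcr10 (ENSMUSG00000059534, mm39 chromosome 11, 4651973 to 4654342) had 72.0, 43.8 and 45.6 CPM in yHSCs, 127, 179 and 169 CPM in Selp low and 79.3, 77.0 and 76.8 CPM in Selp high paHSCs. All 3 groups were apart, with Selp low highest and yHSCs lowest. Its log2 fold change of Selp low over yHSCs was 1.59 ± 0.31, a 3.01-fold difference (adjusted p = 0.332, edgeR). DESeq2 called it at an adjusted p of 0.0336, within a range of 0.0336 to 0.981 over the alternatives. Uqcr11 (ENSMUSG00000020163, mm39 chromosome 10, 80238831 to 80242664), a small subunit of the same complex, had 104, 50.5 and 56.5 CPM in yHSCs, 178, 275 and 203 CPM in Selp low and 117, 96.0 and 97.2 CPM in Selp high paHSCs. It had the largest difference of complex III, 1.67 ± 0.39 or 3.19-fold (adjusted p = 0.332, edgeR), and yHSC library 1 overlapped the Selp high paHSCs. The core proteins Uqcrc1 and Uqcrc2 were nearer to the yHSCs. Uqcrc1 had 443, 288 and 365 CPM in yHSCs, 471, 453 and 656 CPM in Selp low and 577, 337 and 541 CPM in Selp high paHSCs. Its log2 fold change of Selp low over yHSCs was 0.56 ± 0.29 (adjusted p = 0.544, edgeR), and that of Uqcrc2 was 0.49 ± 0.24 (adjusted p = 0.514, edgeR). The Rieske iron-sulfur protein Uqcrfs1, which takes electrons from reduced coenzyme Q, had 146, 118 and 134 CPM, then 187, 184 and 210 CPM in Selp low and 116, 95.2 and 121 CPM in Selp high paHSCs. It was the 1 gene of complex III with a negative log2 fold change in Selp high paHSCs over yHSCs, -0.30 ± 0.22 (adjusted p = 0.921, edgeR). Per length, Uqcrb was the highest gene of the complex, at 273, and Uqcrq the lowest, at 46.1.

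In complex IV, Cox4i1, a subunit through which ATP is known to regulate the enzyme, had 215, 169 and 173 CPM in yHSCs, 330, 416 and 427 CPM in Selp low and 249, 264 and 242 CPM in Selp high paHSCs. All 3 groups were apart. Its log2 fold change of Selp low over yHSCs was 1.11 ± 0.26 (adjusted p = 0.332, edgeR). Cox5a, a subunit of the matrix side, had 59.1, 43.3 and 45.3 CPM in yHSCs, 76.9, 110 and 154 CPM in Selp low and 50.5, 74.0 and 87.0 CPM in Selp high paHSCs, with 1.23 ± 0.31 for the same pair (adjusted p = 0.332, edgeR). Cox6a1, the widely expressed isoform of subunit VIa, had the largest difference of the complex, 1.45 ± 0.35 or 2.72-fold (adjusted p = 0.332, edgeR). Its levels were 221, 121 and 135 CPM in yHSCs, 335, 489 and 447 CPM in Selp low and 220, 215 and 246 CPM in Selp high paHSCs, so that yHSC library 1 overlapped the Selp high but not the Selp low values. Per length it was the highest gene of complex IV at 385, and Cox8b, known from muscle and brown fat, was the lowest at 0.029.

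In complex V, the log2 fold changes of Selp low over yHSCs ran from 0.17 for Atp5a1 to 1.59 for Atp5mpl. The alpha subunit Atp5a1 had 632, 752 and 862 CPM in yHSCs, 677, 738 and 1031 CPM in Selp low and 1031, 819 and 1043 CPM in Selp high paHSCs. The catalytic beta subunit Atp5b had 1264, 1342 and 1472 CPM, then 1395, 1565 and 2324 CPM in Selp low and 1645, 1538 and 1974 CPM in Selp high paHSCs. Selp low and yHSC values overlapped for both, with log2 fold changes of 0.17 ± 0.28 (adjusted p = 0.945) and 0.41 ± 0.31 (adjusted p = 0.718) by edgeR, each of which turned negative without scaling factors (-0.42 and -0.17). Atp5e, the epsilon subunit of the central stalk, had 47.9, 30.6 and 33.2 CPM in yHSCs, 78.4, 139 and 108 CPM in Selp low and 51.8, 72.7 and 55.9 CPM in Selp high paHSCs. All 3 groups were apart, and Selp low exceeded yHSCs by 1.58 ± 0.33 on the log2 scale, 2.99-fold (adjusted p = 0.332, edgeR; 0.0440, DESeq2; range over the alternatives 0.0440 to 0.981). Atp5mpl (ENSMUSG00000021290, mm39 chromosome 12, 111927809 to 111933411), a small proteolipid of the membrane part, had 63.0, 42.6 and 40.8 CPM in yHSCs, 106, 159 and 167 CPM in Selp low and 97.1, 102 and 116 CPM in Selp high paHSCs. Here both paHSC groups lay above all yHSCs and overlapped each other. Its log2 fold change of Selp low over yHSCs was 1.59 ± 0.31, 3.01-fold (adjusted p = 0.332, edgeR; 0.0341, DESeq2; range over the alternatives 0.0341 to 0.981). Per length, Atp5b was the highest gene of the complex at 381 and Atp5l, the g subunit of the membrane part, the lowest at 11.9 apart from the row without counts.

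**Figure D3:**
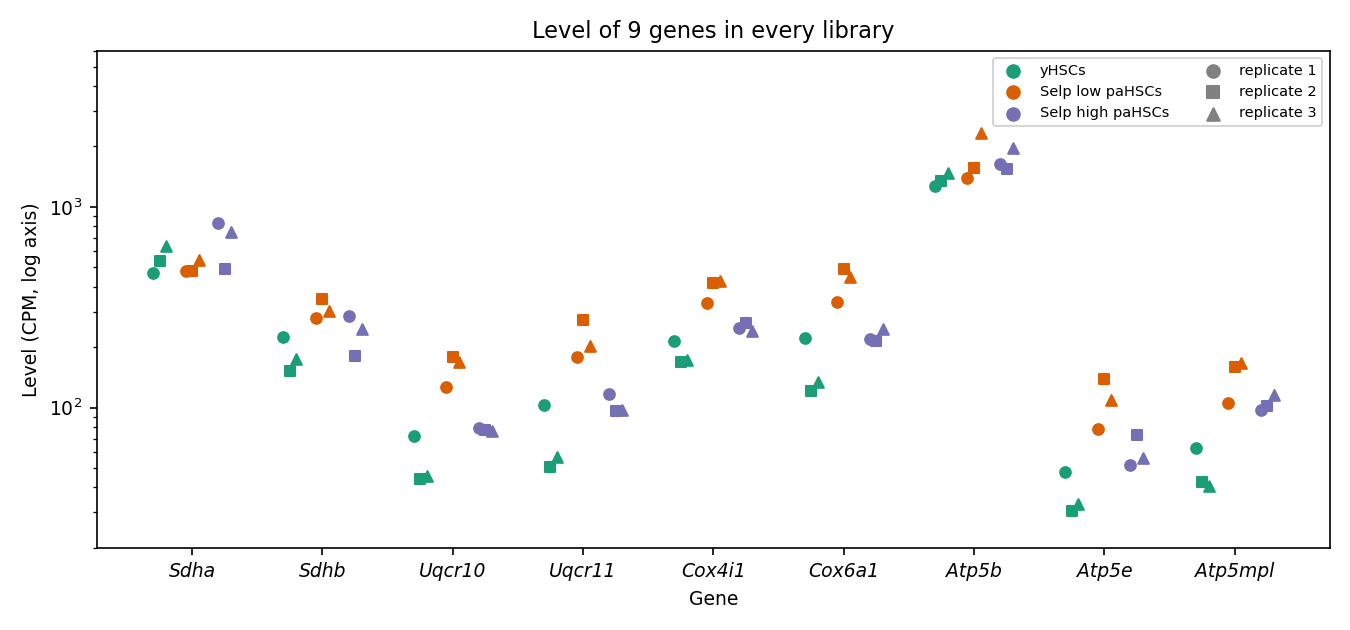
Level (CPM, log axis) of 9 genes in every library, coloured by group, with the replicate given by point shape. Uqcr10, Uqcr11, Cox4i1, Cox6a1, Atp5e and Atp5mpl are higher in all Selp low libraries than in all yHSC libraries, while Sdha and Atp5b overlap.

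Selp high and Selp low paHSCs, the 2 fractions sorted from pre-aged HSCs, were compared next. The sources used here do not say whether same-numbered libraries came from the same mice. The Selp low libraries are shared with the comparison above, so the values of the 2 comparisons are not independent. Of 49 members tested, none was a DEG by edgeR (0% of 20370 genes higher and 0% lower), and the lowest adjusted p was 0.338. At an unadjusted p under 0.05, 25 members were lower and 0 higher in Selp high paHSCs, where 5.67% of all genes were lower and 6.88% higher. In 29 members the Selp high libraries all lay below the Selp low libraries and in 1, Cox4i2, above, against 10.6% and 10.3% of all genes. The median log2 fold change was -0.71 over members and -0.11 over all genes, with 45 members negative and 4 positive. DESeq2 called 0 members higher and 0 lower (0.748% and 1.53% of all genes), and limma called 0 and 0 (0% and 0%). These fits left out the replicate number. With it as a block in edgeR, 0 members were DEGs and their lowest adjusted p was 0.108. In that fit 27 members were lower and 0 higher at an unadjusted p under 0.05, which 3675 of 20370 genes reached in either direction.

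Complex II stood nearer to 0 than the other complexes in this pair also. Its median log2 fold change was -0.35, against -0.88 for complex III, -0.74 for complex IV and -0.74 for complex V, and 0 of 8 genes of complex II, 6 of 8 of complex III, 9 of 16 of complex IV and 10 of 17 of complex V had an unadjusted p under 0.05. In complex III, Uqcr11 had the largest difference whose libraries were apart, -1.09 ± 0.26 on the log2 scale, and its values are given above (adjusted p = 0.338, edgeR). Atp5l had the largest of complex V, -0.90 ± 0.28 (adjusted p = 0.338, edgeR), with 84.0, 153 and 127 CPM in Selp low, 58.1, 69.5 and 68.6 CPM in Selp high paHSCs and 55.5, 35.9 and 39.7 CPM in yHSCs. In complex II, Sdhaf1 had -0.84 ± 0.45 with groups that overlapped (adjusted p = 0.496, edgeR). Sdha, Atp5a1 and Atp5b overlapped between the groups here too, at 0.46 ± 0.30 for Sdha (adjusted p = 0.576), 0.23 ± 0.31 for Atp5a1 (adjusted p = 0.785) and -0.04 ± 0.35 for Atp5b (adjusted p = 0.971) by edgeR. Sdhb had -0.39, Uqcrc1 -0.13, Uqcrfs1 -0.81, Cox4i1 -0.64 and Cox5a -0.69, and without scaling factors Sdhb, Uqcrc1 and Atp5b turned to 0.11, 0.33 and 0.44. Leaving out Selp low library 2, where 1239 of 22435 genes had an unadjusted p under 0.05, left 14 members under it. Leaving out both Selp low libraries 2 and 3 gave a median of -0.37 against 0.03 over all genes. With library totals and no scaling factors 0 members were under that p, and the share of all genes under it was not taken. The median was then -0.19 against 0.37 over all genes, and the complex II median turned to 0.14.

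Selp high paHSCs and yHSCs differed least. Of 49 members tested none was a DEG by edgeR, where 0.105% of 20017 genes were higher and 0.0599% lower, and the lowest adjusted p was 0.30. At an unadjusted p under 0.05, 2 of the 49 members (4.08%) were higher and 0 lower, against 4.48% and 3.11% of all genes. The members' share was thus no larger than that of all genes. All Selp high libraries lay above all yHSC libraries in 17 members and below in 0, against 8.52% and 5.28% of all genes. The median log2 fold change was 0.36 over members and -0.03 over all genes, with 47 members positive and 2 negative. DESeq2 called 0 higher and 0 lower (1.77% and 1.06%), and limma called 1 higher and 0 lower (0.894% and 0.505%).

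The complexes were close to each other here, with medians of 0.29, 0.35, 0.43 and 0.39 for complexes II, III, IV and V. The 2 genes at an unadjusted p under 0.05 were Atp5mpl, at 1.06 ± 0.28 on the log2 scale (unadjusted p = 0.0056, adjusted p = 0.30, edgeR), and Cox6b1, a subunit at the contact between the partners of the complex IV dimer, at 0.61 ± 0.25 (unadjusted p = 0.0449, adjusted p = 0.642, edgeR). Atp5mpl, whose levels are given above, was the member limma called, at an adjusted p of 0.0199, in a range of 0.0199 to 1.00 over the alternatives. Cox6b1 was chosen after its values were seen, and had 150, 102 and 106 CPM in yHSCs, 186, 179 and 197 CPM in Selp high and 239, 313 and 324 CPM in Selp low paHSCs. Among the other largest differences, Uqcr10 had 0.49 ± 0.28 (adjusted p = 0.839), Sdhaf1 0.38 ± 0.39 (adjusted p = 0.985) and Cox7a1 0.80 ± 0.99 (adjusted p = 0.991) by edgeR. The core subunits ranged from -0.30 for Uqcrfs1 to 0.48 for Cox5a. The yHSC library 1 had the highest value of the yHSCs in 37 of 47 members. The same share over all genes was not taken. That library also had the highest neutrophil sum (64897 CPM) and erythroid sum (2729 against 304 and 576 CPM) of that group. Of the neutrophil markers, Mmp8 (54.8 against 293 and 463 CPM) and Retnlg (57.3 against 229 and 280 CPM) were lowest there. Without yHSC library 1, 20 members had an unadjusted p under 0.05, as did 2143 of 21036 genes. The median was then 0.55 over members and 0.11 over all genes.

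The differences varied with the length of the gene's coding sequence. Coding lengths came from an older annotation matched by gene ID. For Selp low over yHSCs, the 37 members with up to 600 coding bases had a median log2 fold change of 1.25, the 5 members above that and up to 900 bases 0.82 and the 5 of over 900 bases 0.41. Genes that are not members had medians of 0.75 up to 300 bases, 0.58 above that and up to 600, 0.25 above that and up to 900, 0.13 up to 1200, -0.07 up to 1800, -0.22 up to 3000 and -0.09 over 3000. For Selp high over Selp low the members' medians were -0.78, -0.57 and -0.04 and the other genes' medians in the same classes -0.58, -0.42, -0.08, -0.01, 0.13, 0.19 and -0.06. The longest genes thus broke the order in both comparisons. For Selp high over yHSCs they were 0.40, 0.32 and 0.31, and 0.15, 0.18, 0.10, 0.06, 0.0032, -0.11 and -0.27. Members of up to 300 bases had medians of 1.32, -0.88 and 0.44 in the 3 comparisons, further from 0 than the other genes of that length. Across the 47 members, Spearman's rho between coding length and log2 fold change was -0.74 for Selp low over yHSCs, and across 15108 other genes -0.29; genes share their libraries and are not independent replicates. The part of coding length in the results was not tested.

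**Figure D4:**
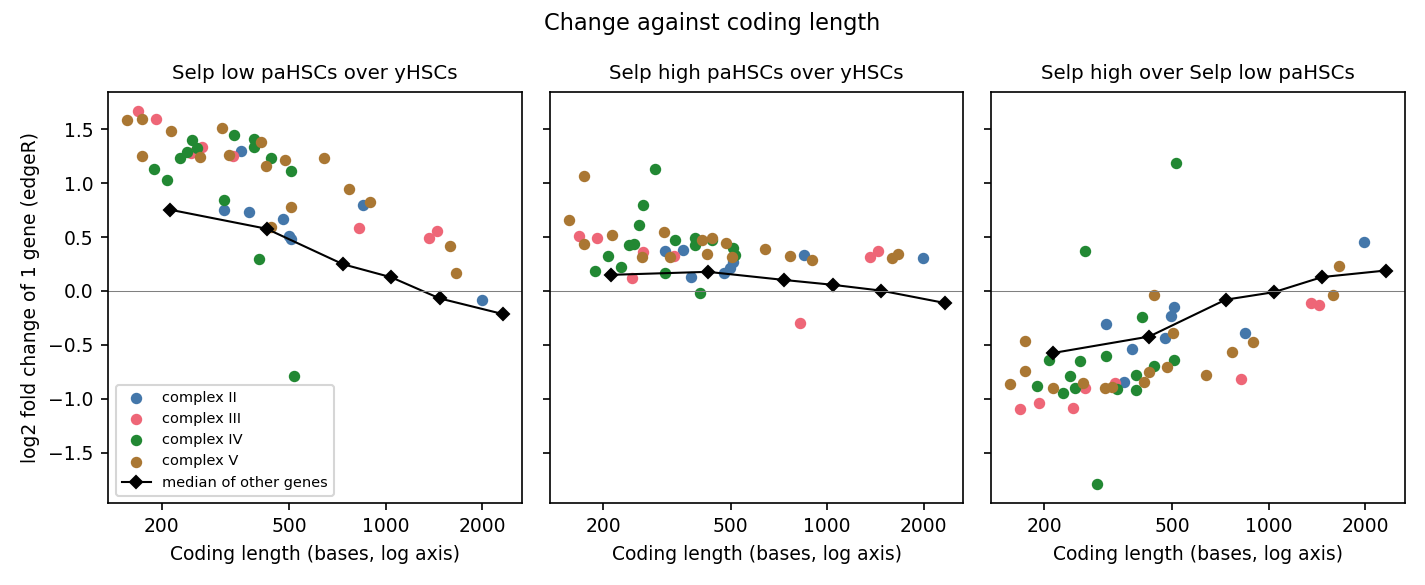
log2 fold change (edgeR) of each tested member against its coding length (bases, log axis), coloured by complex, with black diamonds for the median of all other genes in each length class up to 3000 bases. Short members lie farthest from 0, and most members lie above the other genes' medians for Selp low over yHSCs.

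Complex I and ribosomal genes are the sets most like these members in function or gene length. Complex I (46 genes tested) had medians of 1.08 for Selp low over yHSCs, -0.65 for Selp high over Selp low and 0.35 for Selp high over yHSCs. Mitochondrial ribosomal proteins (77 genes) had 0.66, -0.37 and 0.24, and cytosolic ribosomal proteins (84 genes) 0.85, -0.36 and 0.43. The members' medians of 1.21, -0.71 and 0.36 thus stood beside those of complex I, and no test of the difference was made.

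Several subunits of complex IV are encoded by a widely expressed gene and by tissue-restricted ones. The c subunit of complex V is also encoded by more than 1 gene. Shares were taken of the summed level per gene length. Cox4i2, the isoform of subunit IV known from lung and from hypoxia, had 17, 55 and 82 counts in yHSCs, 14, 16 and 20 in Selp low and 85, 71 and 42 in Selp high paHSCs. These few counts were 1.49 ± 0.98% of the Cox4i1 and Cox4i2 pair in yHSCs (SD, n = 3), 0.371 ± 0.114% in Selp low and 1.32 ± 0.37% in Selp high paHSCs. All Selp low shares lay below all others, with an exact permutation p of 0.1 for either comparison, the smallest that 3 against 3 libraries allow, and 0.429 after adjustment over 30 tests. The nearest shares were 0.496% in Selp low library 2 and 0.523% in yHSC library 1. The log2 fold change of Cox4i2 was 1.18 ± 0.67 for Selp high over Selp low (adjusted p = 0.517, edgeR). For Selp low over yHSCs it was -0.79 ± 0.78 with levels that overlapped (adjusted p = 0.831, edgeR), while that of Cox4i1 was 1.11.

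The heart and muscle isoforms were close to the counting limit. Cox7a1 had 8 to 13 counts in yHSCs, 5 to 15 in Selp low and 16 to 24 in Selp high paHSCs, or 0.147 to 1.15% of the pair with Cox7a2. Cox6a2 had 96 counts in Selp low library 2, 61 in Selp high library 2 and 0 to 19 in the other 7, and its gene overlaps Itgad on the opposite strand. Cox7b2 had 0 to 35 counts, Cox8c 0 to 8 and Cox8b 0 to 1. Cox6b2, known from testis, was the most used of these isoforms, with 9.28 ± 1.30% of its pair with Cox6b1 in yHSCs, 6.48 ± 1.83% in Selp low and 6.83 ± 1.34% in Selp high paHSCs. Its exact permutation p of 0.1 for Selp low against yHSCs was 0.429 after adjustment. The 3 c-subunit genes differ in their import sequence and encode the same mature protein. Atp5g3 gave 61.8 ± 3.12% in yHSCs, 64.9 ± 0.43% in Selp low and 59.7 ± 1.61% in Selp high paHSCs. Atp5g2 gave 22.9 ± 6.17%, 16.04 ± 1.71% and 24.0 ± 2.71% in the same order, and Atp5g1 15.3 ± 3.95%, 19.0 ± 1.47% and 16.3 ± 1.31%. Atp5g2 and Atp5g3 shares did not overlap between Selp high and Selp low paHSCs (exact permutation p of 0.1, adjusted 0.429).

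**Figure D5:**
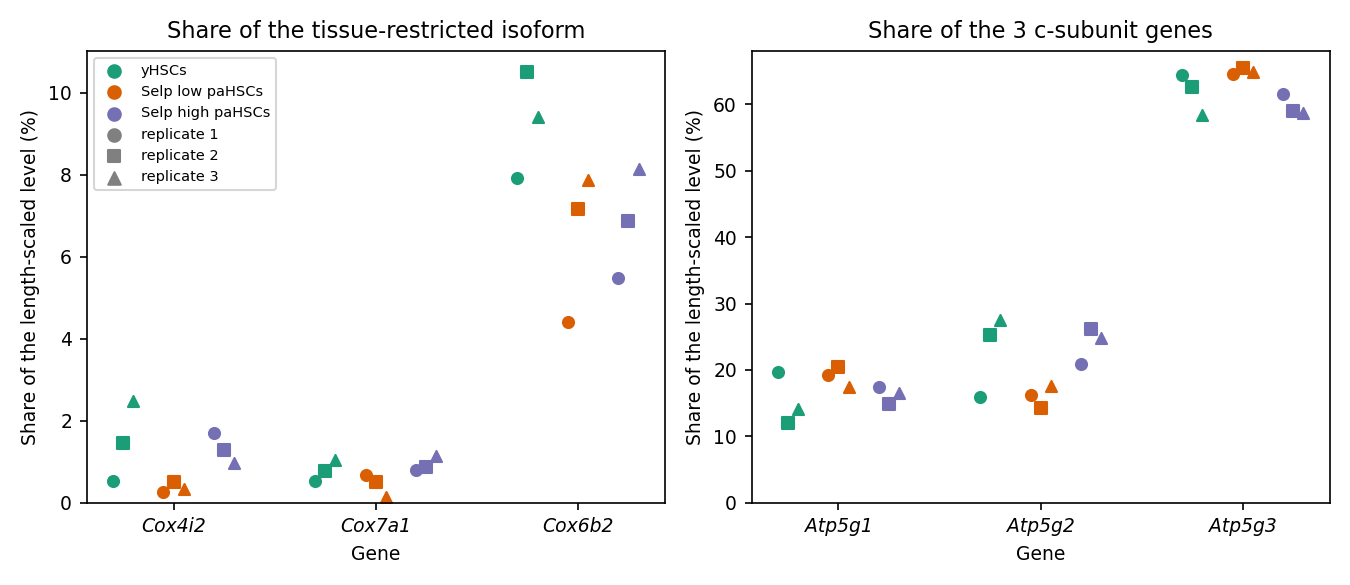
Share of the length-scaled level (%, axis from 0) held by 3 tissue-restricted complex IV isoforms, left, and by each of the 3 c-subunit genes, right, in every library. Cox4i2 shares are below 0.50% in all Selp low libraries and above it in the other 6, and Atp5g3 is the most used c-subunit gene in every library.

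Other genes of the pathway that the naming rule does not hold were counted from lists. Of 24 tested complex IV assembly and accessory genes, 11 were higher in Selp low paHSCs than in yHSCs at an unadjusted p under 0.05 and 0 lower, while between the 2 paHSC groups 5 were lower and 1 higher on the Selp high side. Of all genes 7.11% were higher and 4.17% lower in the first of these comparisons, and 5.67% lower and 6.88% higher in the second. Of 7 other complex III genes, 3 were higher and 0 lower in Selp low paHSCs than in yHSCs, and of 5 complex V assembly genes 1 and 0. Named after their values were seen, Ndufa4, a late subunit of complex IV, had a log2 fold change of 1.08 (adjusted p = 0.332, edgeR) and the complex III assembly factor Uqcc3 1.15 (adjusted p = 0.332, edgeR) for that pair. Of 12 cytochrome c and coenzyme Q genes, 2 were higher and 0 lower for Selp low over yHSCs, with a median of 0.16, and 1 higher and 1 lower for Selp high over Selp low, with a median of 0.27 and 7 of 12 positive. For Selp high over yHSCs 2 were higher and 0 lower (4.48% and 3.11% of all genes), with a median of 0.32. From this list, cytochrome c (Cycs), the carrier between complexes III and IV, had 1.42 for Selp low over yHSCs and -1.25 for Selp high over Selp low (adjusted p = 0.332 and 0.338, edgeR). Its levels were 176, 81.8 and 101 CPM in yHSCs, 223, 350 and 370 CPM in Selp low and 112, 124 and 163 CPM in Selp high paHSCs. Coq8a, a kinase-like protein of coenzyme Q synthesis, had 109, 160 and 166 CPM in yHSCs, 218, 102 and 108 CPM in Selp low and 829, 238 and 291 CPM in Selp high paHSCs. Its log2 fold change was 1.65 over Selp low paHSCs and 1.62 over yHSCs (adjusted p = 0.348 and 0.403, edgeR).

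Of 11 regulators of nuclear respiratory genes, which include Nrf1, Gabpa, Ppargc1a and Tfam, 0 had an unadjusted p under 0.05 for Selp low or Selp high paHSCs over yHSCs by edgeR. One comparison gave 1, Polrmt, the mitochondrial RNA polymerase, at 1.00 for Selp high over Selp low (adjusted p = 0.338, edgeR). At an unadjusted p under 0.05, 6.88% of all genes were higher and 5.67% lower in that comparison. The same shares were 7.11% and 4.17% for Selp low over yHSCs, and 4.48% and 3.11% for Selp high over yHSCs. DESeq2 and limma called 0 of the 11 in each comparison. The 6 mitochondrial DNA genes of complexes III to V had medians of 0.22 for Selp low over yHSCs, -0.07 for Selp high over yHSCs and -0.21 for Selp high over Selp low, with 0 at an unadjusted p under 0.05 and 0 calls by either other tool.

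Some members cannot be counted cleanly. A second Atp5o row had 0 counts in every library, 3 members had fewer than 10 counts in every library, and Cox5b-ps is a near copy of Cox5b, whose reads the counting may split. Of the members, 15 overlap another gene that had at least 100 counts in all, such as Atp5a1 with Haus1, Atp5j with Gabpa and Cox4i1 with Emc8, and without strand information the reads of such pairs cannot be told apart. The 12 pseudogene rows that fit the naming rule held 2629 counts against 2674150 on the members.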

How the data were processed

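Bulk RNA-seq of 9 HSC libraries was analysed. The authors deposited raw counts per gene, whole numbers with no normalization; their notes name CASAVA 1.8, HISAT2 2.2.1, featureCounts 2.0.6, DESeq2 1.42.0 and build mm39. No source used here gives the annotation release, the strand setting or the treatment of multi-mapped reads. Groups followed the labels, and all 9 count columns were used.

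In R 4.3.3, edgeR 4.0.16 (TMM, filterByExpr, quasi-likelihood test, Benjamini-Hochberg over all genes) was run on 2 groups at a time. DESeq2 1.42.0 and limma 3.58.1 with quality weights were alternatives. CPM used TMM-scaled totals. Shares were compared by 2-sided exact permutation. Depth was 24866975 to 35375310 counts. Floors cover counting error only, while SEs come from the edgeR fit and SDs from the spread over the libraries of a group. The test was checked on simulated data.

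The naming rule reads gene names only, but the gene set, lists and named genes were chosen with earlier results of these data known. Per-library values were given for the largest change of each complex and comparison, members called by a test, core subunits, isoforms and the highest and lowest genes. Same-numbered Selp high and Selp low libraries deviated together (residual correlations 0.199, 0.320 and 0.325), as the 0.1 rule for pairs asks; those of the other comparisons did not (-0.408 to 0.0874). Promoters came from RefSeq (GRCm38.p6), coding lengths from an older annotation, and plots from matplotlib 3.10.9.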

Additional observations from a re-analysis of the deposited data

How the results depend on the processing

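Without a replicate block, 0, 33 and 0 genes of the whole table were DEGs for Selp high over Selp low, Selp high over yHSCs and Selp low over yHSCs. Values in the order of these 3 comparisons follow where 3 are given. The DEG count over all genes was 193, 472 and 365 with no filter on low counts, 589, 596 and 517 with DESeq2, and 275 and 431 with limma quality weights in the last 2. For Selp high over yHSCs it was 92 with the newer quasi-likelihood setting, 19 in 1 fit of all 9 libraries and 61 with protein-coding genes only. With the replicate block it was 9 for Selp high over Selp low, whose same-numbered libraries deviated together, and 0 for Selp high over yHSCs, whose numbers do not pair the samples; the block called 0 members in any comparison and changed no other call.

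Members called DEG went from 0 to 1 with limma for Selp high over yHSCs, and to 3 with DESeq2 and 25 with limma for Selp low over yHSCs. For Selp high over yHSCs, 2 members had an unadjusted p under 0.05. This count was 1 with RLE size factors, upper-quartile factors, no filter, DESeq2 and protein-coding genes only. Genes of the whole table under that p were, in this order, 1533 and 1502 of 20017, 1981 and 2225 of 41339, and 1268 of 14857. The members' count was 29 with limma, where 3282 of 20017 genes were under that p, against 1519 in the fit as designed. The complex V median with limma was 0.56. The complex II median for Selp low over yHSCs was 0.84 with limma.

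Leaving out Selp low libraries 2 and 3 together was chosen after seeing the data. For Selp high over Selp low it gave a median of -0.37 over members, with -0.65, -0.38 and -0.36 for complexes III, IV and V. For Selp low over yHSCs it gave a median of 0.71, with 0.45, 0.85, 0.70 and 0.74 for complexes II to V. The lone Selp low library was assumed to vary like the other groups. Library totals without scaling factors were also chosen after seeing the data. For Selp high over Selp low they gave 0 members at an unadjusted p under 0.05. The median was -0.19, with 0.14, -0.36, -0.22 and -0.22 for complexes II to V. For Selp low over yHSCs they gave 4 such members and a median of 0.59, with 0.14, 0.65, 0.62 and 0.60. The share of all genes under that p was not taken in this setting.

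Leaving out 1 library at a time, the DEG count over all genes ranged from 0 to 50, 0 to 36 and 0 to 118. The members at an unadjusted p under 0.05 ranged from 14 to 27 for Selp high over Selp low and 1 to 20 for Selp high over yHSCs. Genes of the whole table under that p ranged from 1239 to 3450 and from 897 to 2143 in these 2 comparisons. The median over members ranged from 0.32 to 0.55 and that of complex V from 0.35 to 0.61 for Selp high over yHSCs, and that of complex II from 0.51 to 0.89 for Selp low over yHSCs.

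Among the named genes, 19 of 868 values under the alternatives turned sign. For Selp high over Selp low, Atp5b was 0.025 with no filter, 0.22 with limma, 0.31 without Selp low libraries 2 and 3, 0.44 without scaling factors and -0.16 to 0.21 leaving out 1 library; Uqcrc1 was 0.0075 with limma, 0.049 without those libraries, 0.33 without scaling factors and -0.27 to 0.080; and Sdhb was 0.11 without scaling factors. For Selp low over yHSCs, Atp5a1 was -0.035 with limma, -0.25 without Selp low libraries 2 and 3, -0.42 without scaling factors and -0.083 to 0.28; Atp5b was -0.072 and -0.17 under the same last 2 settings; and Sdha was -0.22 to 0.036 leaving out 1 library. Counts not divided by gene length gave share differences of 0.487 points for Cox4i2 and -2.09 for Atp5g3 between Selp high and Selp low, and -0.19 for Atp5g3 between Selp low and yHSCs. The cause of these shifts was not tested. The other 597 summary values stayed within the limits set for them. Depth limits the isoforms with few counts, Cox4i2, Cox6a2, Cox7a1, Cox7b2, Cox8b and Cox8c.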
